A study of Rattus norvegicus with 4 samples.

Results

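The genes described here carried m6A peaks in neonatal rat cardiac fibroblasts (CFs) overexpressing FTO and had no listed peak in the cells given the empty plasmid. They were chosen by counting the listed peaks under each NCBI gene ID and keeping genes with 2 or more peaks in the FTO group and 0 in the Vector group. Peaks were listed on 8534 genes in the Vector group, the FTO group or both, and the rule picked 126 of them, a background of 1.48%, and these genes carried 293 of the 17796 FTO peaks. The counts chose the genes, so they are given as a description and with no test.

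Primary CFs were isolated from the hearts of healthy Sprague-Dawley rats no older than 3 days and received, for 48 h, either an empty plasmid (Vector, wild type in the labels) or a plasmid carrying rat FTO cDNA (FTO, labelled as overexpression). In m6A-seq, fragmented RNA enriched by an anti-m6A antibody (m6A-IP) is sequenced beside the input RNA, and peaks are called where enriched fragments outnumber those of the input. Each group had 1 m6A-IP and 1 input library and 1 deposited peak list, which holds the peak length in bp, the Ensembl transcript and, in most rows, the gene ID. The number of animals behind each library is not given in the sources used here, and with 1 library pair a group no replicate check or p-value can be had. The sequencing depth is unknown, the heights of peaks and the transcript levels were not analysed here, and a gene with more transcript cannot be told apart from a gene with more methylation.

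m6A is laid on nascent mRNA by the METTL3 and METTL14 methyltransferase complex, often in long internal exons and near the stop codon. FTO is one of the demethylases that remove it, and reader proteins such as the YTH and IGF2BP families bind the mark and change how long the mRNA lasts or how well it is translated. Fto itself, the transfected gene, had 3 Vector peaks and 9 FTO peaks. Of 16 fibroblast markers, 8 had a peak in either list, with 15 Vector and 13 FTO peaks in all, among them Pdgfra with 7 and 6. Of the 8, 3 had more FTO than Vector peaks, 4 fewer and 1 as many. None of the 8 was among the 126 genes, which is near the background of 1.48% for so short a list. Peaks were also listed on 11 of 20 cardiomyocyte markers, with 29 Vector and 30 FTO peaks in all, on 4 of 15 endothelial markers with 13 and 11, and on 14 of 21 macrophage markers with 34 and 22. The part of these other cell types in the results below was not tested.

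Interferon-induced genes recurred among the 126, and promoter sequence is shown for 3 of them because they are textbook interferon targets and because Rsad2 and Cmpk2 are neighbours in the genome. The windows are the 250 bases before the RefSeq start in the GRCr8 assembly, written 5′ to 3′ on the strand of the gene, and capitals mark the letters GAAA, then 2 bases of any kind, then GAAA again, searched on both strands and read as TTTC on the opposite one. This spelling stands for the core of the interferon-stimulated response element. No peak position was used, so the windows show the genes and not the methylated sites.
Rsad2, chr6:48788121-48788370, minus strand: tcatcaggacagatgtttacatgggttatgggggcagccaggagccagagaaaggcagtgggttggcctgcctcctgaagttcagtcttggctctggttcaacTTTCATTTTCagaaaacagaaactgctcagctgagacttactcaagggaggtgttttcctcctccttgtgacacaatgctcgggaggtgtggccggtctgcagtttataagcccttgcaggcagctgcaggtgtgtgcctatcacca
Cmpk2, chr6:48802600-48802849, plus strand: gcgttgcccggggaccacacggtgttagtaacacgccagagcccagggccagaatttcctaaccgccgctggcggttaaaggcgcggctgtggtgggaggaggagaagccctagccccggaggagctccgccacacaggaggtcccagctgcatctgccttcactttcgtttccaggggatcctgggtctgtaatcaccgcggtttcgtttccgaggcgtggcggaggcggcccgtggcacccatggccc
Gbp4, chr2:233978236-233978485, plus strand: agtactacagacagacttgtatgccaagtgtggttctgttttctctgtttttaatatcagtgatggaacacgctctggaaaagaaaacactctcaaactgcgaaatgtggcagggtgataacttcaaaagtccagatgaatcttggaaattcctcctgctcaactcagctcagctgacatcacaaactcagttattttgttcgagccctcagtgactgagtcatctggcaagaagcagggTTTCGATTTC
The letters occurred in the windows of Rsad2 and Gbp4 and not in that of Cmpk2. Of the 7 genes of the interferon list among the 126, 6 had a window and 2 held the letters, while 902 of all 27457 windows (3.29%) did. Among all 98 members with a window, the letters also occurred in those of Prss1 and Slc1a3, which are outside the interferon list. Whether the letters were more frequent in the interferon genes was not tested. A match is a description of the sequence and not a bound site.

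Of the 126 genes, 98 had 2 FTO peaks, 20 had 3, 4 had 4, 3 had 5 and 1 had 6. The mirrored rule, with 2 or more Vector peaks and 0 FTO peaks, picked 374 genes, 4.38% of all, and these ran further, up to 11 peaks in Acan, followed by Limch1 with 9, Tnik with 8 and Tmem132d, Adamtsl2 and Kif4a with 7 each. Genes with 3 or more peaks made up 22.2% of the FTO genes (28) and 35.8% of the Vector genes (134). Just outside the rule, 685 genes (8.03%) had 1 FTO peak and 0 Vector peaks, against 1015 (11.9%) with 1 Vector peak and 0 FTO peaks. A further 409 genes had 2 or more FTO peaks but also 1 Vector peak. Among those with the most FTO peaks in that group were Ppl with 12, Glis3 with 7, and Cul9, Myo18b, Nup214 and Tnip3 with 6 each. The plot of genes by number of peaks shows the FTO set below the Vector set at every number of peaks that occurred. The Vector set is also the larger, with 374 genes against 126.

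**Figure D1:**
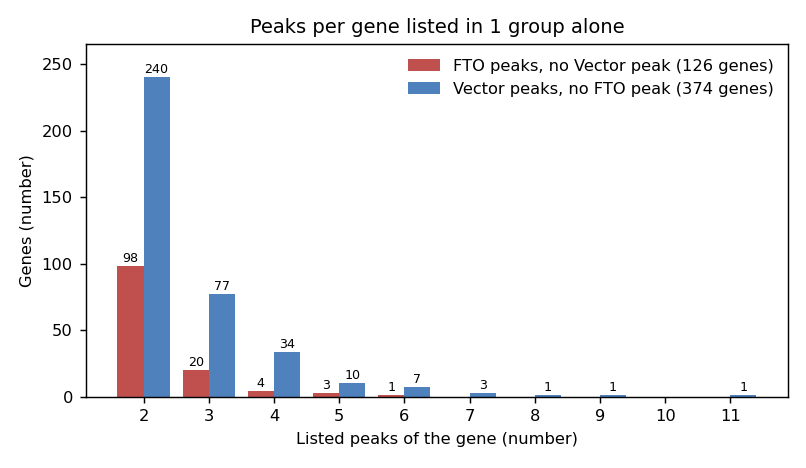
Number of genes (vertical axis) by number of listed peaks (horizontal axis) for the 126 genes with FTO peaks and no Vector peak (red) and the 374 genes with Vector peaks and no FTO peak (blue). Most genes of both sets had 2 peaks (98 and 240), and 6 was the highest number in the FTO set against 11 in the Vector set.

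Ntn1, Nfia, Btbd2 and Kif21a had the most FTO peaks without any Vector peak. Ntn1 (gene ID 114523), which encodes a secreted netrin that guides axons and migrating cells, had 6 FTO peaks of 455, 75, 54, 150, 189 and 932 bp in the order of the caller's peak numbers. All 6 fell on 1 transcript, and together they measured 1855 bp. It was the 1 member on a list of axon guidance genes, of which 48 had peaks, with 137 Vector and 129 FTO peaks in all. That is 2.08% beside 1.48% of all genes, and 1 gene of the list (2.08%) fell in the mirrored set beside 4.38%.

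Nfia (25492), a nuclear factor I transcription factor, had 5 FTO peaks of 532, 129, 179, 166 and 92 bp. Its 3 relatives had peaks in both groups, Nfib 5 Vector and 6 FTO peaks, Nfic 7 and 5, and Nfix 6 and 7. Nfia was therefore the 1 member of its family without a Vector peak.

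Kif21a (300158), a kinesin motor, had 5 FTO peaks of 195, 215, 200, 91 and 204 bp, of which 4 lay between 195 and 215 bp. Kinesins had 137 Vector and 97 FTO peaks on 29 genes, and 21 of these genes had fewer FTO than Vector peaks and 4 had more. Vector peaks were in excess over all genes too, 21001 and 17583, with 3555 genes having fewer FTO peaks and 1818 more. Among the kinesins 1 (3.45%) was a member, and 3 (10.3%), Kif4a, Kif2c and Kif23, were in the mirrored set. Over all genes the shares were 1.48% and 4.38%. The closest relative of Kif21a, Kif21b, had 11 Vector and 7 FTO peaks. Btbd2 (500793), a BTB domain protein, had 5 FTO peaks of 139, 157, 106, 198 and 360 bp with consecutive numbers.

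A further 4 genes had 4 FTO peaks each. Cmpk2 (314004), an interferon-induced mitochondrial nucleotide kinase, had peaks of 756, 115, 202 and 234 bp. Eps15l1 (361120), an adaptor of clathrin-coated pits, had peaks of 158, 198, 137 and 552 bp. Adgb (292477), androglobin, had peaks of 318, 184, 302 and 87 bp. Khdc4 (361980), an RNA-binding KH domain protein, had peaks of 185, 129, 254 and 168 bp. These genes share no family, and the peaks of each fell on 1 transcript.

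The 20 genes with 3 FTO peaks covered a wider range of lengths. Rnf44, a RING finger protein, had peaks of 230, 168 and 2451 bp, and Gxylt1, a xylosyltransferase that modifies Notch, had 941, 2266 and 173 bp. Nod2, the sensor of bacterial muramyl dipeptide, had 574, 1813 and 702 bp, and Cacna1h, the pore of a T-type calcium channel, had 1762, 246 and 790 bp. Mrrf, a mitochondrial ribosome recycling factor, had 212, 160 and 1423 bp. In each of these 5 genes a single peak held most of the summed length. At the short end were Adgrd1, an adhesion receptor, with 76, 111 and 66 bp, and Aldh3b1, an aldehyde dehydrogenase, with 121, 163 and 35 bp. Egfr, the receptor of epidermal growth factor, had 239, 119 and 142 bp. Among the 28 genes with 3 or more peaks, the longest peak was the first or the last by number in 18.

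**Figure D2:**
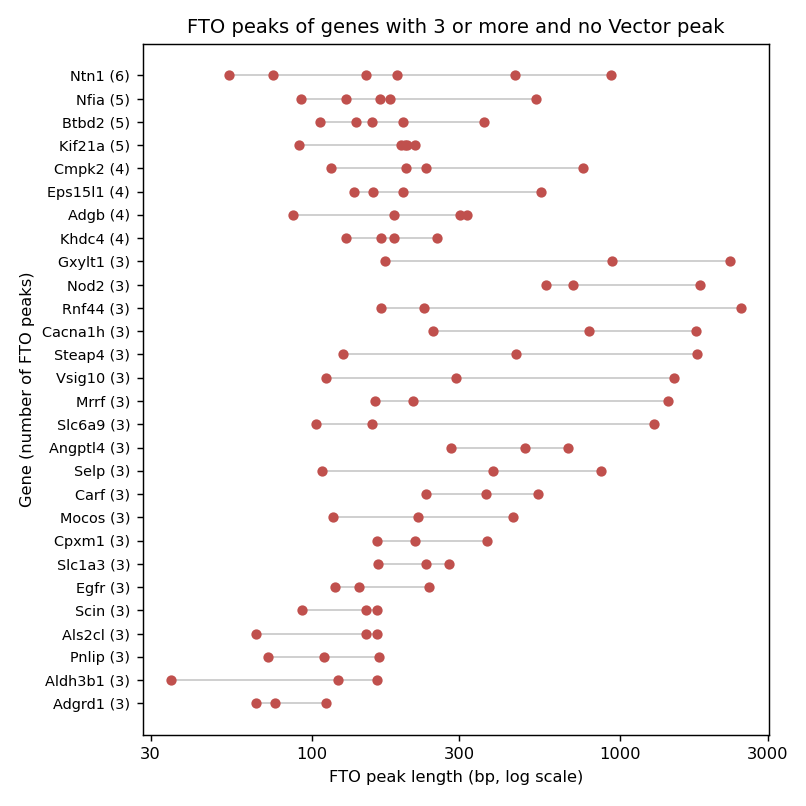
Length of each FTO peak in bp on a log axis (red points) for the 28 genes with 3 or more FTO peaks and no Vector peak, with the number of peaks in parentheses and a grey line from the shortest to the longest peak of the gene. Ntn1 spans 54 to 932 bp and Rnf44 168 to 2451 bp, while the 3 peaks of Adgrd1 lie between 66 and 111 bp.

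The 293 peaks had a median length of 215 bp, with the middle 50% between 137 and 485 bp and extremes of 35 and 3461 bp. Peaks under 100 bp numbered 36 (12.3%) and peaks of 1000 bp or more 27 (9.22%). FTO peaks of genes that had 2 or more FTO peaks and Vector peaks as well had a median of 199 bp, with 12.8% at 1000 bp or more. The Vector peaks of the 374 mirrored genes had a median of 178 bp, with 7.29% at 1000 bp or more. The lists as a whole differed the same way, with medians of 228 bp over all FTO peaks and 203 bp over all Vector peaks. The 685 single FTO peaks stood further away, with a median of 423 bp and 24.2% at 1000 bp or more. Lengths of peaks from 1 library pair are not replicates, so these medians are set side by side without a test.

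**Figure D3:**
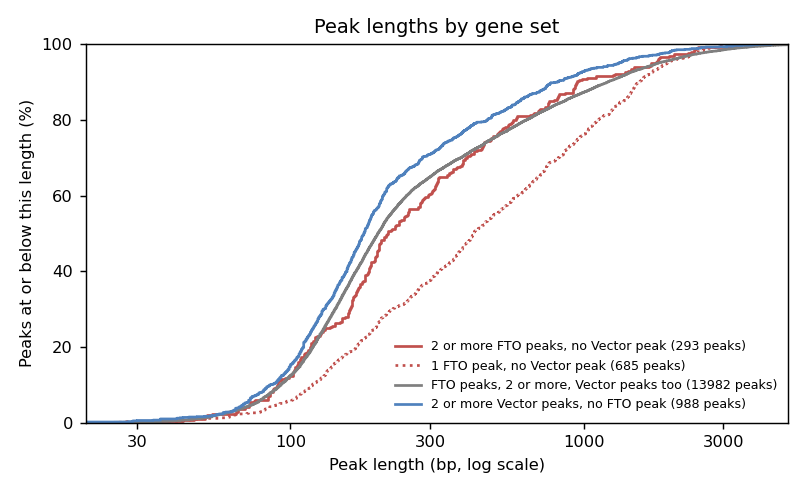
Percentage of peaks at or below each length (vertical axis) against peak length in bp on a log axis, for the 293 FTO peaks of the 126 genes (red), the single FTO peaks of 685 genes (dotted red), the FTO peaks of genes with 2 or more FTO peaks and Vector peaks too (grey) and the Vector peaks of the 374 mirrored genes (blue). The red line reaches 50% at 215 bp, close to the grey line at 199 bp and well left of the dotted line at 423 bp.

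Summed over a gene, FTO peaks covered a median of 720 bp, from 127 to 3706 bp. Among the largest sums were those of Gxylt1 with 3380 bp, of Nod2 with 3089 bp and of Spata2L with 3029 bp. Among the longest single peaks were those of Rnf44 with 2451 bp, Glis2, a Kruppel-like zinc finger factor, with 2445 bp, and Gid4, the substrate receptor of an E3 ligase, with 2396 bp. A gene ID without a RefSeq symbol had a peak of 2380 bp, Spata2L 2320 bp, Gxylt1 2266 bp, Prr36 2037 bp and Cdc42ep1, an effector of the GTPase Cdc42, 1957 bp. A peak of 1000 bp or more was listed for 26 of the 126 genes (20.6%), and as many genes had all their peaks under 200 bp. Among the 98 genes with 2 peaks the longer was a median of 2.24 times the shorter. The ratio was 5 or more in 19 of them and under 1.5 in 30.

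The peaks of 107 genes fell on 1 transcript and those of 19 genes on 2 transcripts. RT1-CE6, a gene of the rat MHC class I region and annotated as a lncRNA, had 2 peaks of exactly 276 bp on the same transcript with consecutive numbers. Near-identical copies are common in that region, and reads shared between copies were not separated. The same limit holds for the Gbp and Oas families.

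Grouped by known function, a grouping made after the members had been seen, the 126 genes were spread over many roles. The classes were not applied to the other genes, so their sizes have no background to be read against. Innate immunity and antigen presentation had 15 genes and 34 peaks. Cytoskeleton, junctions and trafficking (30 peaks), matrix and secreted factors (30), transcription and chromatin (28), metabolism (27) and receptors and signalling (27) had 12 genes each. Channels and transporters had 11 genes, protein turnover 9, RNA processing and nuclear transport 7 and digestive enzymes 3. The median peak was longest in channels and transporters, at 421.5 bp, and shortest in the digestive enzymes, at 109 bp.

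**Figure D4:**
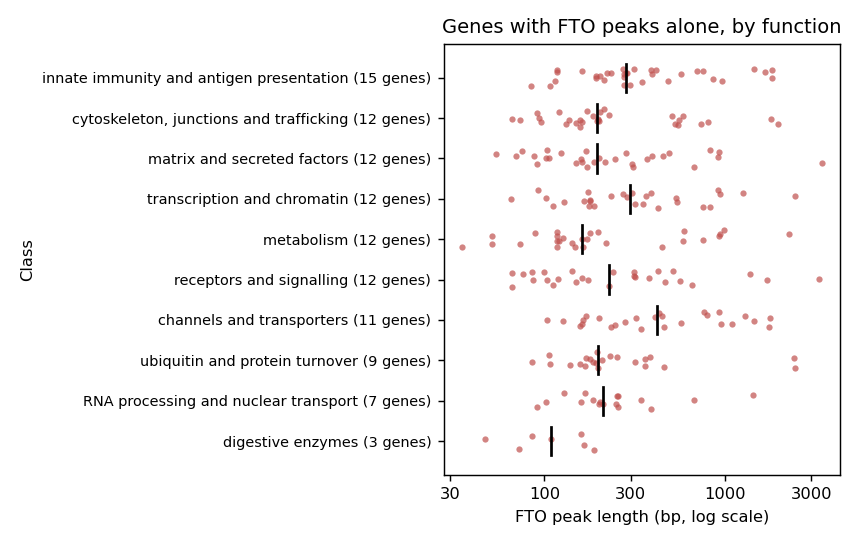
Length of each FTO peak in bp on a log axis (red points, spread vertically for legibility) for the classes of the 105 genes given a function, with black lines at the class medians. Channels and transporters (median 421.5 bp) lie furthest right and the 7 peaks of the 3 digestive enzymes lie between 47 and 188 bp.

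Innate immunity held antiviral effectors, sensors and antigen presentation genes. Cmpk2 and Rsad2, which encodes the antiviral enzyme viperin, are neighbouring genes and had 4 and 2 FTO peaks. Those of Rsad2 measured 162 and 413 bp. Oasl and Oas1f, of the oligoadenylate synthetase family that senses double-stranded RNA, had peaks of 968 and 395 bp and of 485 and 222 bp. The guanylate-binding GTPases Gbp1 and Gbp4 had peaks of 194 and 117 bp and of 213 and 194 bp. Nlrc5, the transactivator of MHC class I genes, had peaks of 84 and 1672 bp. Mr1, an antigen-presenting molecule, had 1821 and 276 bp, and Nfkbiz, a nuclear IkB protein, had 348 and 285 bp. The chemokine receptor Ccr1 had 1449 and 283 bp, and Selp, the P-selectin of activated endothelium and platelets, had 387, 108 and 862 bp. The immune receptor Slamf7 had 273 and 315 bp, and Pvr, a nectin-like ligand of immune receptors, had 118 and 297 bp.

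Of 41 interferon response genes with a peak in either list, 7 were among the 126, which is 17.1% beside 1.48% of all genes. The list also gave 4 genes to the mirrored set, 9.76% beside 4.38%, among them Parp9 with 3 Vector peaks and Irf9 and Eif2ak2 with 2 each. Over the whole list there were 53 Vector and 59 FTO peaks, and 18 genes had more FTO peaks, 16 fewer and 7 as many. The median difference was 0, as it was over all genes. Single FTO peaks without a Vector peak were listed for 6 more of the 41, Ccl5, Herc6, Ifit1, Isg20, Mx1 and Trim30c. Over all genes 8.03% had a single FTO peak and no Vector peak. Single Vector peaks without an FTO peak were listed for 5 of the 41, Cgas, Gbp7, Ifi47, Irf1 and Trim34, beside 11.9% of all genes. The list thus held genes listed for either group alone. With peaks of at least 200 bp it gave 4 members, and Rsad2, Gbp1, Gbp4 and Nlrc5 no longer met the rule.

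**Figure D5:**
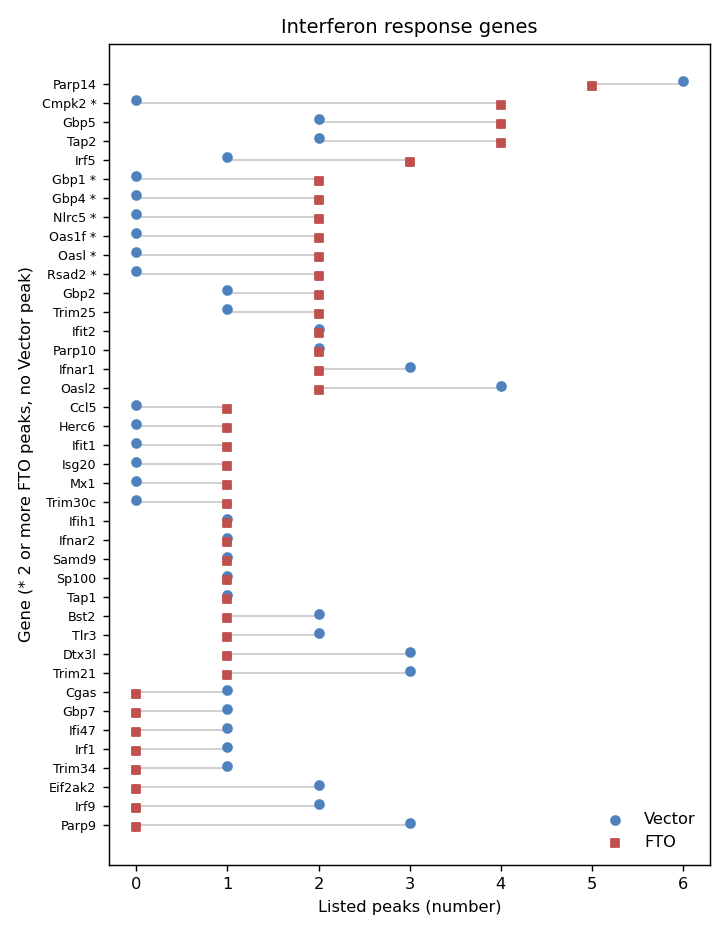
Number of listed peaks (horizontal axis) in the Vector group (blue circles) and the FTO group (red squares) for 40 of the 41 interferon response genes with a peak in either list, joined by a grey line per gene. The 7 starred genes, led by Cmpk2 with 0 and 4, had 2 or more FTO peaks and no Vector peak, while Parp9, Irf9 and Eif2ak2 at the bottom had Vector peaks alone.

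Secreted factors of the matrix and of paracrine signalling included Angptl4, an inhibitor of lipoprotein lipase, with peaks of 676, 282 and 491 bp. Edn1, the precursor of the profibrotic peptide endothelin, had peaks of 159 and 169 bp, and Fgf7, a mesenchymal growth factor for epithelia, had 394 and 104 bp. Col7a1, the anchoring fibril collagen, had peaks of 173 and 201 bp and was the 1 collagen chain of 23 with peaks that fell in the set. That is 4.35% beside 1.48% of all genes, and 2 collagens (8.7%) fell in the mirrored set beside 4.38%. Of the 23, 8 had more FTO than Vector peaks and 13 had fewer. With peaks of at least 200 bp, 0 collagens met the rule. Cpxm1, a carboxypeptidase-like secreted protein, had 369, 162 and 216 bp. Qsox1, a secreted sulfhydryl oxidase, had 821 and 123 bp, and Hp, the haemoglobin-binding plasma protein haptoglobin, had 102 and 918 bp. Crispld2 and Adamtsl5, both secreted, had similar pairs, of 88 and 309 bp and of 91 and 307 bp. Colq, the collagen-like tail of acetylcholinesterase, had 70 and 106 bp. Of 55 matrix glycoprotein and proteoglycan genes with peaks 0 fell in the set, and 7 (12.7%) fell in the mirrored set, beside 1.48% and 4.38% of all genes, so that the 0 is near the background for a list of this size.

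Among transcription factors, 6 of 243 with peaks (2.47%) were members and 15 (6.17%) were in the mirrored set. Over all genes the shares were 1.48% and 4.38%, so both were somewhat above the background. Beside Nfia and Glis2 these were Runx2, the osteoblast regulator, with peaks of 389 and 933 bp, Nkx2-5, the homeobox factor of cardiomyocytes, with 424 and 920 bp, Prrx2, of the mesenchyme, with 304 and 179 bp, and Rfx8 with 317 and 65 bp. Of these 6, only Runx2 and Nkx2-5 met the rule with peaks of at least 200 bp. Runx2 and Clic5, an intracellular chloride channel protein with peaks of 1455 and 322 bp, are neighbouring genes. Hif3a, an alpha subunit of the hypoxia-inducible factors, had peaks of 272 and 102 bp, and Smarcb1, a core subunit of the SWI/SNF remodelling complex, had 288 and 112 bp. Carf, a calcium-responsive factor, had 234, 367 and 540 bp on 2 transcripts, and the storkhead-box protein Stox2 had 822 and 1261 bp. Snapc2, of the complex that drives small nuclear RNA genes, had 754 and 353 bp, and Gtf3c3, of the RNA polymerase III factor TFIIIC, had 188 and 175 bp.

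Of 86 genes with peaks on a list of G protein-coupled receptors, 6 (6.98%) were members and 1 (1.16%) was in the mirrored set. Over all genes the shares were 1.48% and 4.38%. The list was matched on gene symbols and also took in genes that are not such receptors, Htra1 among them. Among the 6 were Adgrd1 and Adgrg1 of the adhesion family, the adenosine receptor Adora2a, Ccr1 and Gpr137. Adora2a had peaks of 1700 and 566 bp, Adgrg1 had 1381 and 423 bp and Gpr137 had 464 and 516 bp. Over all 86 genes there were 111 Vector and 114 FTO peaks. Of 52 receptor tyrosine kinases and growth factors, 3 (5.77%) were members, Egfr, Fgf7 and the angiopoietin receptor Tek with peaks of 380 and 312 bp. Their number fell to 1 when peaks under 200 bp were dropped. Angpt2, a ligand of Tek, was in the mirrored set with 4 Vector peaks.

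The ion channel list gave 3 of 73 genes (4.11%, beside 1.48% of all genes), Cacna1h, Cacna1a with 446 and 924 bp and the inositol trisphosphate receptor Itpr1 with 161 and 572 bp. Matched on symbols as well, it took in genes that are not channels, Trpc4ap among them. Solute carriers gave 3 of 140 (2.14%), or 5 without peaks under 200 bp. The 3 were the glutamate transporter Slc1a3 with 234, 278 and 164 bp, the glycine transporter Slc6a9 with 103, 157 and 1285 bp and the zinc transporter Slc39a9 with 433 and 201 bp. Steap4, a metalloreductase, had peaks of 1775, 458 and 126 bp. Xkr4, an XK-related membrane protein, had 947 and 410 bp, and Clcc1, a chloride channel-like protein of the endoplasmic reticulum, had 342 and 765 bp. Every channel or transporter named here except Slc1a3 and Slc39a9 had a peak longer than 500 bp. In metabolism, Acsl1, which activates long-chain fatty acids, had peaks of 89 and 73 bp, Pdk2, a pyruvate dehydrogenase kinase, 142 and 118 bp, and Pfkfb4, a regulator of glycolysis, 180 and 588 bp. Hs3st3b1, a heparan sulfate sulfotransferase, had 991 and 930 bp, Smox, the spermine oxidase, 51 and 760 bp on 2 transcripts, and Mocos, the molybdenum cofactor sulfurase, 220, 450 and 117 bp. Agpat1, of phosphatidic acid synthesis, had 594 and 198 bp, Pcyt2, of phosphatidylethanolamine synthesis, 162 and 118 bp, the folate enzyme Aldh1l1 148 and 126 bp and the lysophospholipase Pnpla6 117 and 51 bp.

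Protein turnover and RNA handling made up a further 16 genes. Rnf207, a RING finger protein of heart muscle, had 187 and 385 bp, Rnf130 had 196 and 251 bp, and Tnfaip1, an adaptor of cullin-3, had 319 and 170 bp. The autophagy adaptor Wdfy3 had 180 and 458 bp, the proteasome adaptor Ecpas 193 and 209 bp and the aminopeptidase Npepps 85 and 360 bp. These peaks were all shorter than 500 bp, unlike the longest peaks of Rnf44 and Gid4, of 2451 and 2396 bp. The ribosome maturation factors Rcl1 and Tex10 had 203 and 672 bp and 387 and 252 bp. Pan2, a deadenylase subunit, had 343 and 200 bp, Gigyf1, of translational repression, 254 and 250 bp, and the nucleoporin Nup88 102 and 91 bp.

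Protein kinases (3 of 208), the ubiquitin system (3 of 254), GTPase regulators (1 of 162), BTB proteins (1 of 89), zinc finger proteins (1 of 316), chromatin enzymes (1 of 131), Wnt signalling (1 of 49) and TGF-beta and BMP signalling (1 of 53) gave shares from 0.316% to 2.04%, on either side of the 1.48% over all genes. The Wnt member was Gsk3b, the kinase that marks beta-catenin for destruction, with peaks of 99 and 658 bp. Als2cl, a Rab5-binding relative of the exchange factor alsin, was the member among GTPase regulators, with peaks of 66, 162 and 150 bp. The stress-induced signalling genes Sesn3, a sestrin that restrains mTORC1, and Ndrg1 had 227 and 175 bp and 104 and 87 bp, and the ciliary kinase Cilk1 had 312 and 319 bp. No member was found among 73 cell cycle genes, 34 DNA replication genes, 49 integrin and focal adhesion genes, 39 cadherins, 24 Notch genes, 31 Hippo genes, 23 m6A regulators or 109 ribosomal and respiratory chain genes with peaks. With 1.48% of all genes in the set, a count of 0 in any 1 list of this size is near the background. The mirrored set, with 4.38% of all genes, held 9 of the cell cycle genes (12.3%) and 6 of the DNA replication genes (17.6%). It also held 6 of the integrin and focal adhesion genes (12.2%). Its share was 5.5% of ribosomal and respiratory chain genes, 4.35% of m6A regulators, 3.23% of Hippo genes, 2.56% of cadherins and 0% of Notch genes. When peaks under 200 bp were dropped, 1 m6A regulator met the rule. Of the marker lists, cardiomyocytes gave Nkx2-5 and endothelium gave Tek, and the fibroblast, smooth muscle, macrophage, neural and epithelial markers gave 0. The marker lists are short, so a 0 is near the background there too.

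Genes of the cytoskeleton and of trafficking included Cdc42, a small GTPase of cell polarity, with peaks of 198 and 73 bp, and its effector Cdc42ep1 with 738 and 1957 bp. Scin, an actin-severing protein, had 93, 150 and 162 bp, and the vesicle SNARE Vamp2 had 121 and 1799 bp. Podxl, a sialomucin of podocytes and endothelium, had 510 and 228 bp on 2 transcripts, the catenin Arvcf 172 and 527 bp, the annexin Anxa6 557 and 96 bp and the exocyst subunit Exoc7 185 and 66 bp. The sarcomere proteins Mypn and Tmod1 had 810 and 588 bp and 157 and 131 bp. The 3 pancreatic enzymes Pnlip, a lipase, Cpb1, a carboxypeptidase, and Prss1, a trypsinogen, had peaks of 109, 165 and 72 bp, of 188 and 85 bp and of 160 and 47 bp, so that all 7 were shorter than 200 bp.

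The remaining 21 genes were given no class. They were Adgb, Vsig10, Spata2L, Fam110c, Prr36, Klhdc8b, Plet1, Fam167a, Fam169b, C4h3orf20, Pcp4, Chchd10, Gpnmb, Uvssa, Apol7b, Crip1 and 5 gene IDs without a RefSeq symbol. Vsig10, with peaks of 1490, 111 and 294 bp, and Fam110c, with 1026 and 1702 bp, held some of the longest peaks among them. Klhdc8b had 816 and 507 bp and Plet1 199 and 941 bp, while both peaks of Gpnmb (184 and 153 bp), Uvssa (114 and 121 bp), Apol7b (127 and 105 bp) and Crip1 (72 and 109 bp) were short.

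The peak names end in a running number of the caller, which follows the genome, and numbers missing from the lists are read here as calls that were not listed. Within a gene, 77 of the 126 (61.1%) had consecutive numbers, against 171 of the 374 mirrored genes (45.7%). The sets are unlike here, with 3 or more peaks in 22.2% and 35.8% of genes, and more peaks leave more places for a missing number. The part of this in the 2 shares was not tested. For each gene the Vector numbers were read between the nearest flanking transcripts that had peaks in both lists. In 123 of the 126 intervals at least 1 Vector call lay there without being listed, and the total was 1248 unlisted Vector numbers beside 1264 unlisted FTO numbers. Genes that share an interval, such as Rsad2 and Cmpk2, were each counted in these totals. Unlisted numbers were common everywhere, since Vector numbers ran to 59557 and 21249 Vector peaks were listed. Of the 374 mirrored genes only 2 (0.535%) had no unlisted FTO number in the interval, so the 123 is not particular to this set. Ntn1 had 12 unlisted Vector numbers in its interval, Btbd2 had 3 and Egfr had 36. At 3 genes, Adora2a and Oas1f among them, the Vector numbers ran on without a gap, so that no Vector number of any kind fell in the interval. An interval also holds the sequence between genes, and whether an unlisted call lay on the gene itself was not determined.

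Few of the genes were neighbours of one another. Among the 126, 2 were followed in the FTO list by another of the set (1.59%), Rsad2 by Cmpk2 and Runx2 by Clic5, and 1.77% of the other genes were followed by one. The protein-coding genes on either side, by RefSeq order, carried 259 Vector and 228 FTO peaks for the 120 genes that could be placed. These neighbours had more FTO than Vector peaks at 23 genes, fewer at 41 and as many at 56, beside 1818, 3555 and 3161 over all genes. The 2 sides are unlike measures. The neighbour counts sum the genes on either side, and the 56 include places where neither had a peak. The counts over all genes are of single genes with at least 1 peak, so the ties cannot be compared. Beside Kif21a there was 1 Vector peak and 0 FTO peaks, beside Ntn1 1 and 1, and beside Nfia and Egfr 0 and 0.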

How the data were processed

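m6A-seq of 4 libraries, 1 m6A-IP and 1 input in each of the Vector and FTO groups, was used. Groups were taken from the sample titles. Per the labels, reads were trimmed with cutadapt 1.9.3 and aligned with HISAT2 2.0.4 to rn6, and peak names carry the prefix MACS. The caller's settings and threshold are not given in the sources used here. The authors deposited 1 list per group whose value is the peak length in bp, with no normalization. Rows without a gene ID (248 Vector, 213 FTO) were left out of counts by gene. The members and the 34 gene lists were chosen with earlier results of these data known, and the classes of function after the members were seen.

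Symbols came from a RefSeq table of the GRCr8 assembly, in which 121 of 126 members matched by gene ID, of which 120 are protein coding. Only names, neighbours and promoter windows were used from it, since the lists are in rn6. A promoter window existed for 98 of 126 members (77.8%). This is under 80%, so a comparison of base composition over the set would be void and was not made. Where a gene had several windows the first was used. Named genes are Fto, all members with 4 or more peaks, the 10 with the longest peak, the 5 with the largest summed length, up to 8 members per list, the genes with the most Vector peaks and no FTO peak, and the genes just outside the rule with the most FTO peaks. Some genes that meet this rule are not reported here. Others are named as examples of a class or because their value stood out, after their values were seen. No test was made, since each group has 1 library pair. The selection was checked on simulated lists with planted genes. Alternatives were minimum lengths of 100 and 200 bp, 3 or more peaks, transcripts in place of gene IDs, a wider match to the other list, and equal lengths counted once. Python 3.11.15, numpy 2.4.6, pandas 2.3.3, scipy 1.17.1 and matplotlib 3.10.9 were used.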

Additional observations from a re-analysis of the deposited data

How the results depend on the processing

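Of 64 values under the alternatives, 42 stayed within 1.5 times the count or within the 95% interval of the median, and 22 did not. Gene list counts under the 200 bp limit made up 34 of the 64, and 11 of them moved. Many of the list counts that stayed were 0 under both settings and had little room to move, so the 42 overstates the stability. A count that stayed could also stand for other genes. Transcription factors gave 6 under both settings, but Nfia, Glis2, Prrx2 and Rfx8 were lost under the 200 bp limit and others came in. With peaks of at least 200 bp the rule picked 78 genes with 162 FTO peaks and a median of 427.5 bp, and the mirrored rule 170 genes with a median of 407.5 bp. Of the 126 genes 53 (42.1%) were kept, among them Ntn1, Kif21a, Cmpk2 and Adgb, while Nfia, Btbd2, Eps15l1 and Khdc4 were left with fewer than 2 peaks of that length. The other 25 of the 78 were not among the 126 and met the rule because their Vector peaks were shorter than 200 bp. The interferon list then gave 4 members in place of 7. Cmpk2, Oasl and Oas1f were kept, while Rsad2, Gbp1, Gbp4 and Nlrc5 were not. The 4 thus took in a gene from outside the 126. With 3 or more peaks the rule picked 28 genes with 97 peaks and a median of 195 bp, and the mirrored rule 134 genes with a median of 167.5 bp. Asking for 3 peaks leaves out genes with 2, and the length limit takes short peaks out of both lists. With peaks of at least 100 bp, 110 genes were picked, 102 of them among the 126, and the median of the mirrored set was 201 bp. The wider match to transcripts and symbols removed 0 of the 126 genes, and counting equal lengths once removed RT1-CE6. No paired analysis was possible because the design holds 1 library pair a group. The unknown depth limits every absence of a peak.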

Other observations

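Peaks without a gene ID could not enter the rule. Counted by transcript, 2 such transcripts had 2 or more FTO peaks and no Vector peak, with 4 peaks in all, and 6 had 2 or more Vector peaks and no FTO peak, with 14 peaks in all. Of the Vector peaks without a gene ID, 0 lay on a transcript of the 126 genes.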
